A study of Mus musculus with 6 samples.

Results

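Genes for the extracellular matrix and for the enzymes that build and cut collagen were followed in sorted lymphocytes of the mouse small-intestinal epithelium. The set took every protein-coding gene whose symbol begins with the family names of collagen chains (Col), prolyl and lysyl hydroxylases (P4ha, Plod), lysyl oxidases (Lox, Loxl), laminin chains (Lama, Lamb, Lamc), matrix metalloproteinases (Mmp), their inhibitors (Timp), ADAMTS and ADAMTS-like proteins, C1q/TNF-related proteins (C1qtnf) and podocan proteins (Podn), with at least 60 counts summed over the 6 libraries. Of 55487 genes in the table, 128 carried such names and 38 reached the minimum. The members were thus chosen by their summed counts over both groups, not by the difference between the groups, but the families were picked with earlier results of these data known. The member with the fewest counts was Mmp9 (71), and the gene with the most counts outside was Mmp15 (50). Of the 90 genes outside, 30 had no count in any library. The pattern also takes Col4a3bp, which encodes a ceramide transfer protein and is no matrix gene, so 37 members fit the set's name.

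The cells came from wild-type C57BL/6J mice and were sorted live from the epithelial layer as cells with CD3ε, a signalling chain that accompanies the T cell receptor, and CD45, a phosphatase on the surface of leukocytes. The B220− group (labelled T cells) and the B220+ group (labelled X cells) have 3 libraries each, and B220 is the CD45 isoform that usually marks B cells. The age of the mice is not given in the sources used here, no library is labelled as treated, and no label says that the libraries of a group come from separate mice, so the p-values reflect how these libraries scatter, which may be technical. A library pools many cells, so fewer cells of a type and less RNA per cell cannot be told apart.

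Libraries held 11320363 to 39591312 gene counts, the most in B220+ replicate 2. The members together took 0.0630% to 0.0660% of counts in B220− and 0.0687% to 0.0739% in B220+ libraries. Of their 78189 counts, Adamts10 held 24545 and Col4a3bp, which is no matrix gene, 11037, and neither gene was called. The 11 T cell markers summed to 12721 to 13151 CPM (read counts scaled to the depth of each library) in B220− and 13196 to 13997 CPM in B220+ libraries. Among fibroblast and smooth muscle markers, Lum, Pdpn, Grem1 and Cspg4 (4 of 15) had no count in any library, and among endothelial markers Kdr, Emcn, Cldn5, Tek and Tie1 (5 of 13) had none. The summed fibroblast list was 11.4 to 13.5 CPM in B220− and 7.97 to 10.4 CPM in B220+ libraries, and of its 3 tested genes Pdgfrb was lower in B220+ cells. The endothelial list summed to 28.8 to 30.2 CPM in B220− and 30.8 to 36.6 CPM in B220+ libraries, and its 1 tested gene was not called. Of mast cell and granulocyte markers, S100a8, S100a9 and Elane (3 of 11) had no count, and of 3 tested none was called higher and Mcpt1, a mast cell protease, was called lower in B220+ cells. The summed level of that list was 50.7 to 109 CPM in B220− and 202 to 317 CPM in B220+ libraries, most of it Kit (adjusted p = 0.0543). The macrophage and dendritic cell list, none of whose 14 genes was at 0, summed to 254 to 325 and 385 to 536 CPM, most of it Itgax, and of 6 tested genes Lyz2 was called lower. Epithelial markers (0 of 15 at 0) summed to 313 to 380 and 342 to 388 CPM. B and plasma cell markers (1 of 11 at 0) summed to 106, 340 and 736 CPM in B220− replicates 1 to 3 and to 131, 155 and 236 CPM in B220+ replicates 1 to 3, most of it Igha. Paneth and goblet cell markers (0 of 13 at 0) were highest in both replicate 3 libraries, at 110 and 106 CPM, and lay between 8.31 and 23.8 CPM in the others. The part of these cells in the results below was not tested.

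Collagens are triple helices that need hydroxylated proline to be stable and hydroxylated lysine for sugar attachment and cross-links. Prolyl 4-hydroxylases and lysyl hydroxylases make these changes in the endoplasmic reticulum, and lysyl oxidases start the cross-links outside the cell. Metalloproteinases of the MMP and ADAMTS families cut collagens, proteoglycans and other substrates, TIMP proteins inhibit them, and lymphocytes use some of them to cross basement membranes, the sheets of laminin and type IV collagen under an epithelium.

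All 38 members passed the filter on low counts and were tested. In edgeR's quasi-likelihood test 7 members were higher and 7 lower in B220+ cells at a Benjamini-Hochberg adjusted p under 0.05 over all genes tested, so that 14 of 38 (36.8%) were called, where 11.1% of all 14722 genes were (5.58% higher and 5.56% lower). Of the members, 11 (28.9%) were called with a change of at least 2-fold, against 3.80% of all genes. The CPM values of the groups did not overlap for 23 members (60.5%), against 28.1% of all genes. The median log2 fold change, B220+ minus B220−, was 0.091 over the members and −0.0074 over all genes. Mmp9, Mmp25, Col4a1 and Adamts17 had fewer than 30 counts in 1 group and reached the minimum through the other. All 4 were called, with a change of at least 2-fold and with groups that did not overlap, so each of the member shares above includes them. Among the remaining 34 members 10 were called. With the replicate number as a block in the fit the same 14 were called, where 17.5% of all genes were (8.85% higher and 8.6% lower). Each library was also left out in turn, which gives 6 leave-one-out fits. In the one without B220+ replicate 2, the deepest library, 9 members were called. Beside the matrix members, Col4a3bp stood at 88.3 ± 7.75 CPM in the 3 B220− and 99.6 ± 12.6 CPM in the 3 B220+ libraries (mean ± SD; edgeR adjusted p = 0.312) and was not called.

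**Figure D1:**
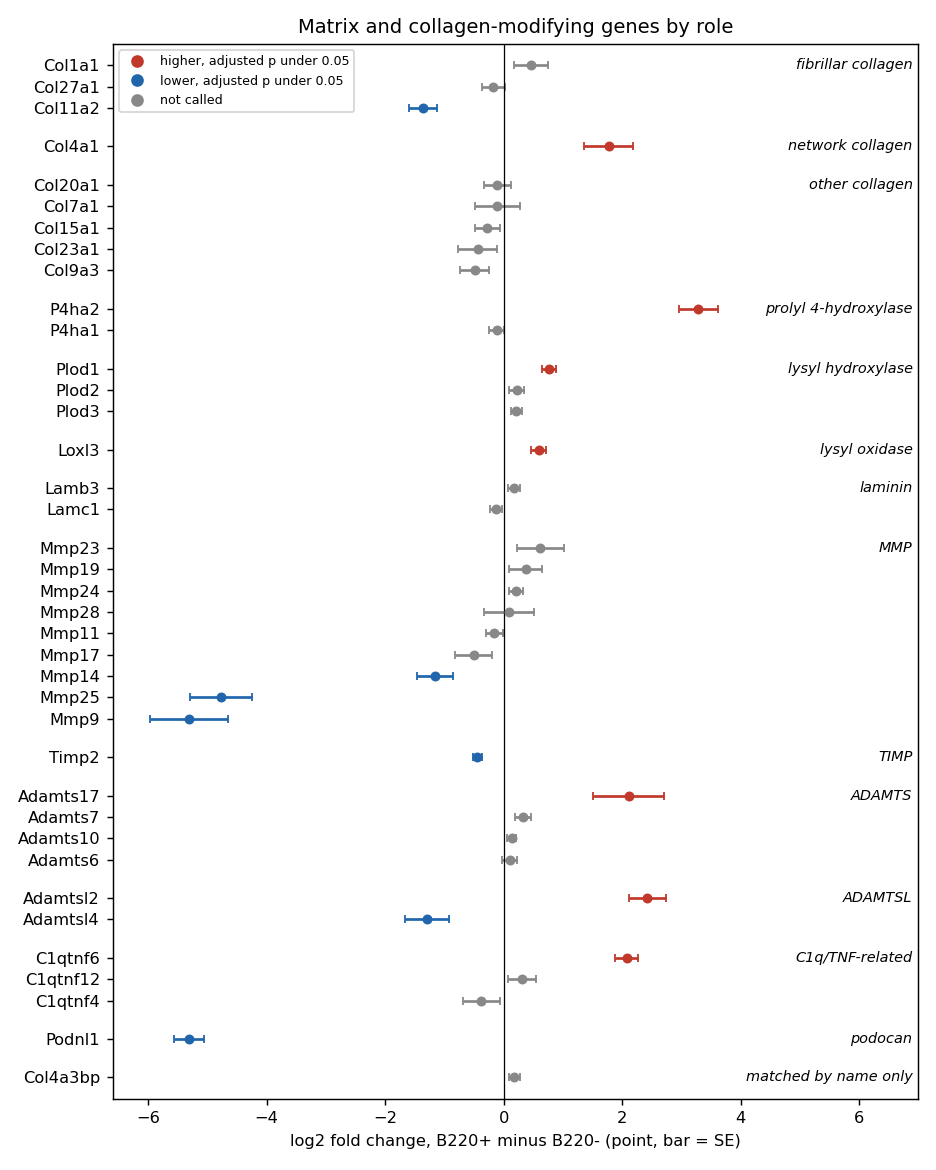
Log2 fold change of the 38 members, B220+ minus B220−, by role, with bars for the standard error (SE) of edgeR's fit. Blue points (7) are called lower, red points (7) called higher and grey points (24) not called; the grey points lie between −0.51 and 0.62.

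The upstream sequences of 6 called members are shown so that the letters upstream of rising and falling genes can be compared. Each is the 150 bases before the RefSeq transcription start, on the gene's strand, build GRCm38.p6, with every match to the motifs searched in capitals. The motifs, on both strands, were AP-1 (TGANTCA), the hypoxia response core (ACGTG), the nuclear receptor core (AGGTCA) and the GC box (GGGCGG); none contains another. Rising genes come first: P4ha2 (chr11:54100774-54100923, plus strand, a RefSeq start 829 bases inside the deposited gene model), C1qtnf6 (chr15:78529652-78529801, minus strand, 1765 bases inside) and Adamtsl2 (chr2:27079229-27079378, plus strand). Falling genes follow: Col11a2 (chr17:34038988-34039137, plus strand, a start 299 bases from that of the deposited model), Mmp25 (chr17:23645270-23645419, minus strand) and Mmp14 (chr14:54431448-54431597, plus strand).
P4ha2: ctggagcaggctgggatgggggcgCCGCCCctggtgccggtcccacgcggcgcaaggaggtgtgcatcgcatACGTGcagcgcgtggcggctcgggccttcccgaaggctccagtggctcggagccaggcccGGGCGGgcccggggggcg
C1qtnf6: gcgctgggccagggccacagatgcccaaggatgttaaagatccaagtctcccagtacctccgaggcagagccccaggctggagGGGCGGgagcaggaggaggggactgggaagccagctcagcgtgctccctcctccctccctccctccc
Adamtsl2: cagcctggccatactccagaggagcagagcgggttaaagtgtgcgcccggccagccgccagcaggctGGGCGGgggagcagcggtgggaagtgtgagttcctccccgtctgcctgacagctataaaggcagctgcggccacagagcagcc
Col11a2: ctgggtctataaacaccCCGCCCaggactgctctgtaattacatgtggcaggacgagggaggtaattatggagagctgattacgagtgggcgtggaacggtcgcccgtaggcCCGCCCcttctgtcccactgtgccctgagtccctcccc
Mmp25: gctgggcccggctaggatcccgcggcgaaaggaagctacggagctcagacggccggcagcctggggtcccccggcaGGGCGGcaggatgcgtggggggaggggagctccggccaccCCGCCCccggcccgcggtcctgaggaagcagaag
Mmp14: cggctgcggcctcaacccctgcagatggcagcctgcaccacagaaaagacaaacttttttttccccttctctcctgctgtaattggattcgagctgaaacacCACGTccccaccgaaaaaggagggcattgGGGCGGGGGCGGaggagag
RefSeq's table matched 23 of the 38 members by symbol, 11 of them called. Of these 11, 9 held the GC box, among them the 6 shown, and Col4a1 and Adamts17 did not. The hypoxia response core was in 3 of the 11, the rising genes P4ha2 and Adamts17 and the falling gene Mmp14. AP-1 was in 0 of these 23 windows and in 4.24% of all 32851 windows, the nuclear receptor core in 2 (8.58% of all), the hypoxia core in 5 (11.2%) and the GC box in 15 (28.6%). The median GC content was 67.3% in the members' windows and 54% in all.

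Among collagen chains, 9 of 44 reached the minimum, 1 was called higher, 1 lower and 7 not called. Over all genes 5.58% were called higher and 5.56% lower, and the chain called higher, Col4a1, reached the minimum through the B220+ group. Col11a2, a chain of the minor fibrillar type XI collagen of cartilage (mm10 chromosome 17, 34039437 to 34066685), stood at 5.66, 5.16 and 5.86 CPM in B220− replicates 1 to 3 and at 1.53, 2.49 and 2.26 CPM in B220+ replicates 1 to 3. Every B220+ library lay below every B220− library, and the gene fell 2.57-fold (log2 fold change −1.36, SE 0.23, adjusted p = 0.00206). Col4a1, the commonest chain of basement membrane collagen (chromosome 8, 11198423 to 11312826), went the other way, from 0.269, 0.453 and 0.437 CPM to 1.10, 1.39 and 1.42 CPM. It rose 3.41-fold (log2 1.77, SE 0.42, adjusted p = 0.0151) on 18 counts in B220− and 88 in B220+ libraries. Its call held in 3 of 6 leave-one-out fits, and the adjusted p was 0.0957 without B220+ replicate 2, 0.0729 without B220− replicate 1 and 0.0571 without B220+ replicate 3.

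The other collagens did not pass the test. Col1a1, a chain of type I collagen, averaged 2.49 ± 0.46 CPM without and 3.41 ± 1.08 CPM with B220 (mean ± SD over 3 libraries per group, B220− first, as below; edgeR adjusted p = 0.401), with overlapping groups. Col27a1 (4.42 and 3.92 CPM), Col20a1 (4.41 and 4.06 CPM), Col15a1 (4.03 and 3.31 CPM), Col9a3 (3.52 and 2.47 CPM), Col23a1 (2.08 and 1.55 CPM) and Col7a1 (1.38 and 1.33 CPM) had adjusted p of 0.263 to 0.910. The groups of Col9a3, Col27a1 and Col15a1 did not overlap, and those of the other chains did. Reads of Col20a1 are uncertain, since a sense-overlapping transcript with 172% of its counts shares exonic bases with it.

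A collagen or laminin molecule is made of 3 chains, and the libraries held several chains without the partners they are known to assemble with. Type I collagen pairs Col1a1 with Col1a2, which had 15 counts over all libraries (13 of them in B220+ replicate 2) against 351 for Col1a1. Per kb of exon the mean level over the 6 libraries was 0.45 CPM for Col1a1 and 0.0065 CPM for Col1a2. Col4a2, the partner of Col4a1, had 7 counts, all in B220+ replicate 2, against 106 for Col4a1. Col9a1 and Col9a2, the partners of Col9a3, had 0 counts, which allows up to 3 counts or 0.0265 CPM over the 6 libraries. Col11a1, the partner of Col11a2, had 5 counts against 412. Col3a1, the other main collagen of soft tissue, had 3. These limits and all counts here cover counting error only.

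Laminins join an α, a β and a γ chain. Of 11 laminin genes, 2 reached the minimum: Lamc1, a γ chain of most laminins, at 44.3 ± 2.7 and 40.7 ± 5.58 CPM, and Lamb3, the β chain of epithelial laminin, at 20.8 ± 0.89 and 23.5 ± 0.46 CPM. Neither was called (adjusted p = 0.521 and 0.314). The 5 α chains together had 45 counts over all libraries, against 4800 for Lamc1 and 2527 for Lamb3. Per kb of exon Lamc1 and Lamb3 stood at 5.14 and 3.35 CPM, and the most abundant α chain, Lama5, at 0.016 CPM. Lamb3 spans the opposite-strand gene Hsd11b1, with 73.6% of its counts, and overlaps the same-strand transcript Gm37691, with 89.5%. It shares no exonic base with either.

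**Figure D2:**
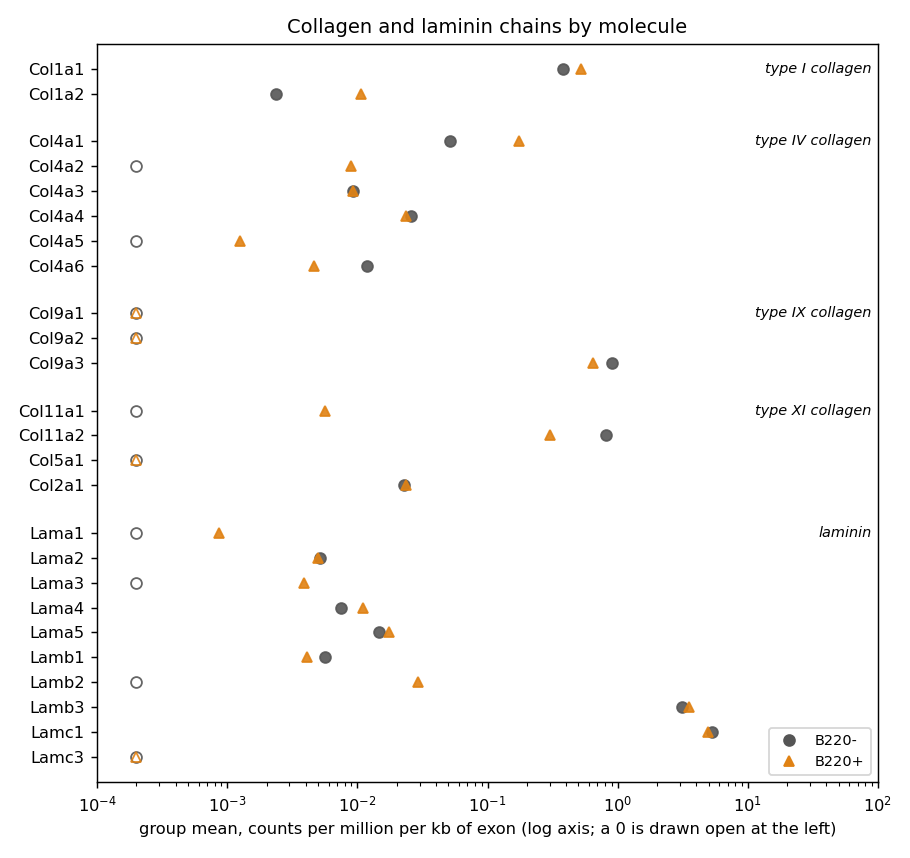
Group mean level of collagen and laminin chains in CPM per kb of exon (log axis), with circles for B220− and triangles for B220+ cells; an open symbol is a group mean of 0. Lamc1 and Lamb3 lie above 1, Col1a1, Col9a3 and Col11a2 between 0.1 and 1, and the partner chains Col1a2, Col9a1, Col9a2 and Col11a1 below 0.1.

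Per kb of exon, P4ha1 and the 3 lysyl hydroxylases stood between 1.51 CPM (Plod1 in B220− cells) and 6.12 CPM (Plod3 in B220+ cells), while the collagen members reached at most 0.91 CPM (Col9a3 in B220− cells). P4ha2, a catalytic subunit of prolyl 4-hydroxylase (chromosome 11, 54100095 to 54131665), stood at 1.35, 2.32 and 1.22 CPM in B220− and at 10.4, 16.6 and 21.6 CPM in B220+ replicates 1 to 3. All B220+ libraries were above all B220− libraries, a 9.73-fold rise (log2 3.28, SE 0.33, adjusted p = 3.79e-04). This was the largest rise among the members. P4ha1, the other main catalytic subunit, did not pass (23.5 ± 1.58 and 21.7 ± 3.61 CPM, adjusted p = 0.635), and P4ha3 had 3 counts in all. Per kb of exon P4ha1 stood at 5.70 CPM and P4ha2 at 0.26 CPM in B220− cells, and in B220+ cells at 5.26 and 2.59 CPM. The shared β subunit P4hb, protein disulfide isomerase, stood at 324 ± 20.9 and 339 ± 12.7 CPM (adjusted p = 0.659).

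Plod1, which hydroxylates lysine in the collagen helix (chromosome 4, 147909753 to 147936767), was 10.1, 9.75 and 10.8 CPM in B220− and 17.4, 17.7 and 16.8 CPM in B220+ replicates 1 to 3. The libraries of a group lay close together and the groups far apart, with a 1.70-fold rise (log2 0.77, SE 0.12, adjusted p = 9.66e-04). Plod2, which acts on the telopeptides, stood at 18.9 ± 2.35 and 22.1 ± 2.71 CPM (adjusted p = 0.338). Plod3, which also transfers glucose, stood at 23.8 ± 0.63 and 27.7 ± 0.32 CPM (adjusted p = 0.156), with no overlap between the groups and exonic bases shared with the opposite-strand gene Znhit1. Loxl3, a lysyl oxidase (chromosome 6, 83034173 to 83052562), rose 1.51-fold, from 17.4, 22.6 and 17.2 CPM to 24.8, 31.3 and 29.9 CPM (log2 0.59, SE 0.13, adjusted p = 0.00954). Its exons share 535 bases with the opposite-strand gene Htra2, which has 535% of its counts and a log2 fold change of 0.079 (adjusted p = 0.622), and whether the counting used strand is not given in the sources used here. The adjusted p of Loxl3 was 0.0675 without B220+ replicate 2 and 0.0576 without B220− replicate 3. The other 4 lysyl oxidase genes had at most 26 counts each.

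Among the 9 MMP members, 3 were lower and none higher in B220+ cells by edgeR's test, and none was higher at an unadjusted p under 0.05 (0 members) or by DESeq2 (0 members). Over all genes 5.56% were called lower and 5.58% higher, and of the 3 MMP calls Mmp9 and Mmp25 reached the minimum through the B220− group alone. Mmp9, the secreted gelatinase B that cuts denatured and type IV collagen (chromosome 2, 164940780 to 164955850), stood at 1.62, 1.42 and 1.22 CPM in B220− and at 0, 0.0504 and 0 CPM in B220+ replicates 1 to 3. These levels rest on 69 and 2 counts, so the B220− level was 47.5 times the other after correction for depth (95% interval from counting, 12.7 to 400.2), and the test gave an adjusted p of 2.38e-04. Mmp25, a leukocyte MMP tethered to the membrane by a lipid anchor (chromosome 17, 23628311 to 23645277), stood at 2.91, 3.17 and 2.27 CPM against 0.255, 0.0504 and 0.0707 CPM. On 136 and 6 counts that factor was 31.2 (14.0 to 86.6), with an adjusted p of 8.22e-05. Both genes are known from neutrophils, and the part of granulocytes, whose marker values are given above, was not tested.

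Mmp14, a membrane-bound collagenase (chromosome 14, 54431612 to 54445364), fell 2.24-fold, from 5.39, 3.91 and 4.72 CPM to 3.14, 1.34 and 2.12 CPM (log2 −1.16, SE 0.31, adjusted p = 0.0274). The groups did not overlap, but the call held in 2 of 6 leave-one-out fits. The adjusted p was 0.135 without B220+ replicate 2, 0.0849 without B220− replicate 3, 0.0836 without B220+ replicate 3 and 0.0775 without B220− replicate 1. Timp2, the inhibitor that together with Mmp14 activates the proenzyme of Mmp2 (chromosome 11, 118301069 to 118355740), was 49.5, 49.5 and 52.6 CPM in B220− and 38.9, 37.0 and 35.7 CPM in B220+ replicates 1 to 3. It fell 1.36-fold (log2 −0.44, SE 0.074, adjusted p = 0.00180). Mmp2 itself had 0 counts in all libraries, Timp1 7, Timp3 4 and Timp4 0.

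The other 6 MMP members did not pass. Mmp24, a membrane-type MMP best known from the nervous system, stood at 16.99 ± 1.86 and 19.7 ± 2.06 CPM (adjusted p = 0.362) and Mmp11, stromelysin-3, at 15.2 ± 0.72 and 13.8 ± 2.47 CPM (adjusted p = 0.585). Each shares exonic bases with an opposite-strand gene, BC029722 with 217% of the counts of Mmp24 and Chchd10 with 74.1% of those of Mmp11. Mmp17, Mmp19, Mmp23 and Mmp28 lay between 0.977 and 2.72 CPM in B220− cells, with adjusted p of 0.381 to 0.942.

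ADAMTS proteins are secreted proteases, and ADAMTS-like proteins share their binding domains without the protease; several bind fibrillin microfibrils. Adamts10, which binds fibrillin-1, was the most abundant member per kb of exon in both groups, at 24.4 and 26.8 CPM. Its CPM was 202 ± 15.4 and 221 ± 16.2 (adjusted p = 0.360). Adamtsl2, which binds fibrillin-1 and the latent TGF-β binding protein LTBP1 (chromosome 2, 27079379 to 27108981), stood at 3.93, 8.27 and 6.12 CPM in B220− and at 23.5, 36.2 and 37.8 CPM in B220+ replicates 1 to 3. The lowest B220+ library was above the highest B220− library, and the gene rose 5.37-fold (log2 2.42, SE 0.31, adjusted p = 0.00489). Its fibrillin partner Fbn1 had 0 counts and Ltbp1 3 counts in all 6 libraries.

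Adamtsl4, another fibrillin-binding protein, fell 2.45-fold, from 1.40, 1.98 and 1.57 CPM to 0.679, 0.781 and 0.495 CPM (log2 −1.29, SE 0.37, adjusted p = 0.0396). Adamts17 rose from 0.0539, 0.510 and 0.175 CPM to 0.764, 1.41 and 0.990 CPM (log2 2.11, SE 0.60, adjusted p = 0.0394) on 12 and 79 counts. Both calls are the weakest of the 14: no leave-one-out fit called Adamtsl4 (adjusted p from 0.0612 without B220− replicate 1 up to 0.143 without B220− replicate 2). Adamts17 was called in 1, the one without B220− replicate 2, and its adjusted p ran from 0.0621 without B220+ replicate 1 to 0.238 without B220+ replicate 2 in the rest. Adamts6 (12.1 ± 1.47 and 12.9 ± 0.22 CPM) and Adamts7 (11.1 ± 1.06 and 13.9 ± 1.09 CPM) were not called, with adjusted p of 0.743 and 0.159. The opposite-strand gene Tbc1d2b, which has 1927% of the counts of Adamts7 and shares 122 exonic bases with it, was itself called higher (adjusted p = 0.00542).

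C1qtnf6, a secreted C1q/TNF-related protein known as CTRP6 (chromosome 15, 78523346 to 78531416), stood at 3.50, 4.42 and 4.37 CPM in B220− and at 21.2, 13.6 and 17.3 CPM in B220+ replicates 1 to 3. No libraries of the groups overlapped, and the rise was 4.21-fold (log2 2.07, SE 0.19, adjusted p = 2.20e-05). C1qtnf12 (2.87 ± 0.13 and 3.60 ± 0.53 CPM, adjusted p = 0.494) and C1qtnf4 (2.55 ± 0.33 and 1.97 ± 0.72 CPM, adjusted p = 0.541) were not called.

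Podnl1, which encodes podocan-like 1, a secreted leucine-rich repeat protein (chromosome 8, 84125989 to 84132527), had the smallest p of the members. Its level was 42.3, 27.9 and 26.3 CPM in B220− and 0.679, 0.932 and 0.637 CPM in B220+ replicates 1 to 3, on 1580 and 54 counts. The lowest B220− library was far above the highest B220+ library, and the gene fell 39.8-fold (log2 −5.31, SE 0.25, adjusted p = 9.25e-07). Ordered by level per kb of exon, Podnl1 was number 4 of the 38 members in B220− cells, at 9.07 CPM, and number 32 in B220+ cells, at 0.21 CPM. Its relative Podn had 1 count.

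**Figure D3:**
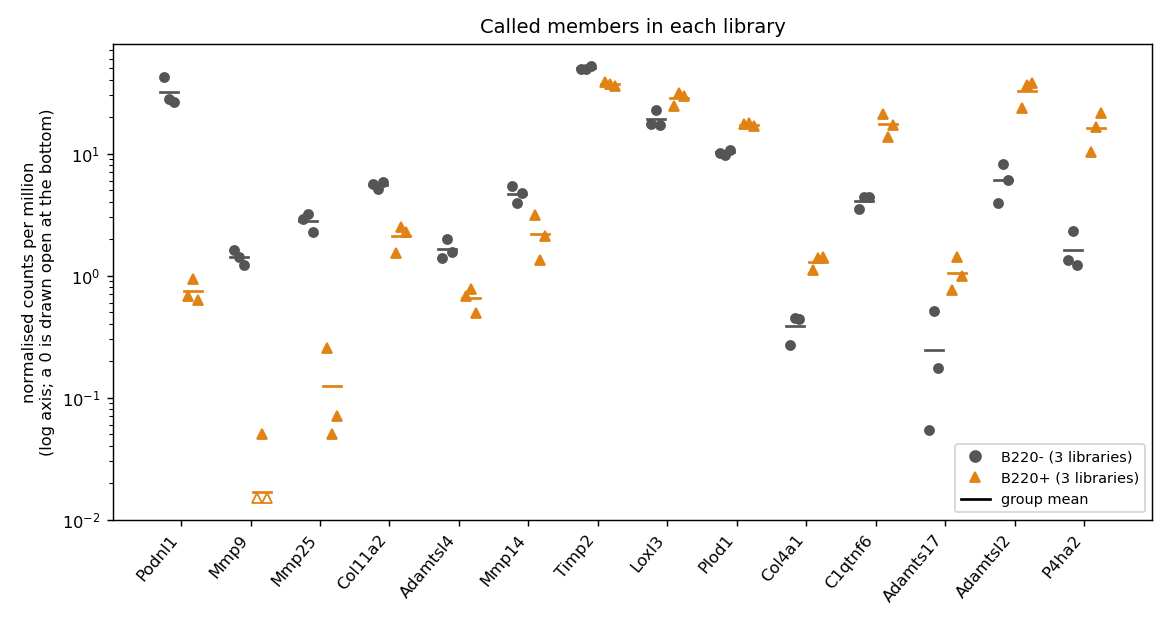
Normalised CPM (log axis) of the 14 called members in each library, circles for B220− and triangles for B220+, with a line at each group mean and open symbols for 0. In no gene do the groups overlap; Podnl1, Mmp9 and Mmp25 are farthest apart downward and P4ha2 farthest apart upward.

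Other genes of the matrix were counted from 4 lists. The calls were 9.09% of the tested genes in the first list, where 11.1% of all genes were called (5.58% higher and 5.56% lower). In collagen folding and secretion, 1 of 11 tested genes (25 matched) was called higher and none lower by edgeR (none lower by DESeq2 or at an unadjusted p under 0.05), with a median log2 fold change of 0.0025. The gene was Colgalt1, which adds galactose to hydroxylysine, at 95.3 ± 18.4 and 160 ± 12.7 CPM (adjusted p = 0.00747). Pdia3, a protein disulfide isomerase and the most abundant of the list by CPM, stood at 515 ± 17.3 and 566 ± 50.6 CPM (adjusted p = 0.342). Serpinh1, the collagen-specific chaperone HSP47, had 2 counts over all libraries and is named after its value was seen.

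Of matrix glycoproteins and proteoglycans, 4 of 12 tested genes (51 matched) were higher and 2 lower, with a median of 0.15. Together 50% of the tested genes were called, against 11.1% of all genes. Spock2, a secreted proteoglycan, rose 2.18-fold to 31.6 ± 4.44 CPM (adjusted p = 5.52e-05), and Emilin1, an elastic-fibre glycoprotein, rose 1.59-fold (adjusted p = 0.00679, but 0.0556 without B220+ replicate 2). Spp1 (osteopontin) rose from 8.82 ± 4.17 to 39.9 ± 2.08 CPM (adjusted p = 0.0196, 0.0894 with the replicate block), and Ltbp4, a latent TGF-β binding protein, 2.95-fold (adjusted p = 0.0241). Fn1, fibronectin, fell from 1.13 ± 0.25 to 0.185 ± 0.18 CPM (adjusted p = 0.0169). It passed the filter on low counts through the B220− group, and the 50% includes it. Spp1 kept its call in 2 leave-one-out fits, those without B220− replicates 1 and 2 (up to 0.0901, without B220− replicate 3), and Ltbp4 in 3 (0.0758 without B220− replicate 1, 0.0908 without B220+ replicate 2 and 0.0931 without B220+ replicate 3). Fn1 kept it in 4 (0.0789 without B220− replicate 3 and 0.104 without B220+ replicate 2). Serglycin (Srgn), the granule proteoglycan, stood at 883 ± 84.2 and 877 ± 72.8 CPM (adjusted p = 0.967). Without B220+ replicate 2 this list had 2 calls, and without B220− replicate 3 or B220+ replicate 3 it had 3.

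The list of matrix receptors holds those for collagen and laminin, and also others, such as Cd44 for hyaluronan. Of its 20 tested genes (30 matched) 1 was higher and 6 lower, with a median of −0.16. Together 35% of the tested genes were called, against 11.1% of all genes (5.58% higher and 5.56% lower). Itgav, an integrin chain, rose 1.48-fold to 123 ± 9.33 CPM (adjusted p = 7.87e-04). Ddr1, a collagen-activated kinase, fell 6.24-fold from 2.29 ± 1.11 CPM (adjusted p = 0.00233). The 35% includes Ddr1, which passed the filter on low counts through the B220− group. Cd44, the hyaluronan receptor, fell 1.83-fold from 104 ± 18 CPM (adjusted p = 0.00173). Lair1, an inhibitory collagen receptor, fell 2.41-fold (adjusted p = 0.0234) and Sdc1, syndecan-1, 4.36-fold (adjusted p = 0.0203). Lair1 kept its call without B220− replicate 2 and without B220+ replicate 3, and reached 0.120 without B220+ replicate 2. Sdc1 lost it without B220− replicate 3 (0.0640), B220+ replicate 1 (0.0805) and B220+ replicate 2 (0.127). Sdc1 also marks plasma cells, and it stood at 3.18, 1.76 and 6.38 CPM in B220− replicates 1 to 3. It was highest in replicate 3, which had the highest B and plasma cell sum. Replicate 2 had a higher sum than replicate 1 but a lower Sdc1 level. The part of those cells was not tested. Itga1, the α chain of a collagen-binding integrin, stood at 493 ± 25.1 and 581 ± 34.1 CPM (adjusted p = 0.0539, but 0.00769 with the replicate block and 0.0170 in DESeq2). The list had 11 calls with the replicate block, where 17.5% of all genes were called. It had 4 without B220− replicate 3, 4 without B220+ replicate 1 and 3 without B220+ replicate 2.

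Of ADAM proteases and partners of metalloproteinases, none of 18 tested genes (34 matched) was called higher and 6 were called lower by edgeR, with a median of −0.088. The 6 calls were 33.3% of the tested genes, where 11.1% of all genes were called (5.58% higher and 5.56% lower). At an unadjusted p under 0.05 and in DESeq2, 1 gene was higher. Adam19 fell from 389 ± 33.4 to 211 ± 12.3 CPM (adjusted p = 1.75e-05), Adam15 1.75-fold (adjusted p = 0.00152) and Adam8 1.68-fold (adjusted p = 0.00433); these are membrane-bound proteases. Adam12, of the same family, had 93 counts in B220− and 3 in B220+ libraries, a ratio of 42.7 after correction for depth (14.2 to 211, adjusted p = 9.88e-04). Adam12 passed the filter on low counts through the B220− group, and the 33.3% includes it. Hpse, heparanase, which cuts heparan sulfate chains, fell 2.06-fold (adjusted p = 0.00361). The protease Furin stood at 619 ± 18.3 and 576 ± 6.37 CPM (adjusted p = 0.395).

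Tested genes within 200 kb of each called member were also read, a choice made after values were seen. Over the 14 members 25 of 192 neighbours were called (13.02%), where 11.1% of all genes were (5.58% higher and 5.56% lower). Of the called neighbours 21 went in the member's direction, 7 of them beside Col11a2, and 4 in the other. Mmp25 (16 neighbours), Adamtsl4 (14) and Adamts17 (5) had none called by edgeR or DESeq2 (1 of these 35 at an unadjusted p under 0.05), and the 1 called neighbour of Mmp9 (of 15) and of Mmp14 (of 18) was higher where the member was lower. Podnl1 had 1 higher and 1 lower of 23. P4ha2 had 3 neighbours, all called higher: Csf2, which encodes GM-CSF and lies 116 kb away, at 1.77 ± 0.62 and 9.25 ± 2.97 CPM (adjusted p = 4.90e-04), Gm12223, which overlaps Csf2, and the carnitine transporter gene Slc22a21 on the other side, at 1.86 ± 0.074 and 4.14 ± 0.47 CPM (adjusted p = 0.00574, but 0.0536 without B220+ replicate 2). C1qtnf6 had 9, with 2 called higher. These were the nearest on one side: Il2rb, a receptor chain for interleukin-2 and interleukin-15, at 871 ± 162 and 1819 ± 127 CPM (adjusted p = 4.71e-04), and the protease gene Tmprss6, at 5.57 ± 2.41 and 26.8 ± 2.21 CPM (adjusted p = 0.00457). Adamtsl2 had 13, with 2 called higher, Slc2a6 and Sardh (adjusted p = 0.00245 and 0.0392), and the call of Sardh was lost in DESeq2 (0.0953) and without B220+ replicate 2 (0.199), B220− replicate 3 (0.135), B220+ replicate 3 (0.124) or B220− replicate 2 (0.0787). Col11a2, in the MHC region, had 35, with 7 called lower. The largest falls among these were of H2-Ob (log2 −1.75, adjusted p = 0.0102) and H2-Ab1 (log2 −1.09, adjusted p = 0.00988). The proteasome and peptide transporter genes Psmb9 (log2 −0.37) and Tap1 (log2 −0.35) were also among them. No test of these neighbourhoods was made.

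**Figure D4:**
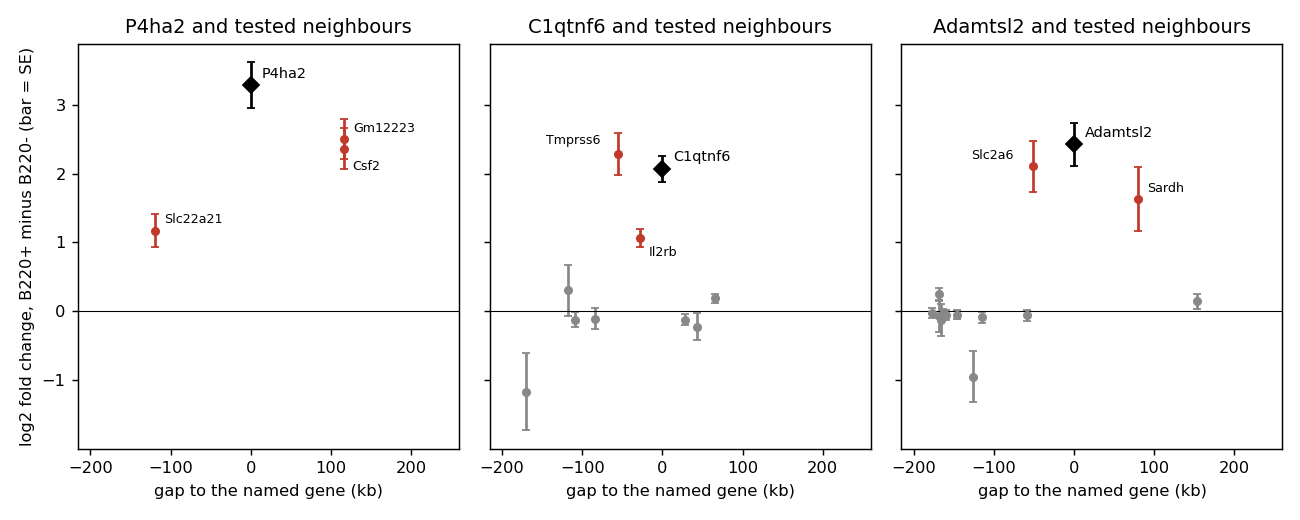
Log2 fold change (bar, SE) of P4ha2, C1qtnf6 and Adamtsl2 (black diamonds) and of the tested genes within 200 kb, against the gap in kb. Red points are called higher and grey points not called; all 3 neighbours of P4ha2 are red, 2 of 9 for C1qtnf6 and 2 of 13 for Adamtsl2. These 3 members were chosen after the values were seen; over all 14 called members 25 of 192 neighbours (13.02%) were called, against 11.1% of all genes.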

How the data were processed

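Total RNA of 6 sorted samples was sequenced after directional library preparation, per the labels' protocols. The authors deposited raw gene counts without normalization. The tools in the submitters' processing notes are HISAT2 2.1.0 and featureCounts 1.6.3, with mm10 as the build, besides Trimmomatic 0.38, FastQC 0.11.7 and SAMtools 1.9. How they were run, whether counting used strand, and which annotation it used is not given in the sources used here. Coordinates are as deposited, 1-based, and 98.7% of gene models (all 38 members) match GENCODE release M21, which gave exonic lengths. Promoter sequences are from RefSeq (GRCm38.p6); the protein motif counts in the design were not made.

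Counts were tested with edgeR 4.0.16 in R 4.3.3: TMM scaling, genes kept by the default rule (at least 10 counts at the median depth, 15 in total), the robust quasi-likelihood F test with group as the only term, and adjustment over all 14722 genes. The SE is the log2 fold change over the square root of F. On simulated counts of at least 14464 genes for this comparison the test recovered 54.4% of genes changed 1.5-fold, 76.4% at 2-fold, 90.8% at 3-fold and 94.4% at 4-fold, and 8.88% of calls were false, above the nominal rate. The members, lists and tests were chosen with earlier results of these data known. Genes were named by rule: called members, the 2 most abundant members of each role, members with an unadjusted p under 0.05, and for each list up to 5 called genes of smallest p and the most abundant one; other names were chosen after their values were seen. Pairs of libraries of a group differed by more than sampling noise.

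Libraries of the same replicate number deviated together (correlations across genes of 0.296, 0.246 and 0.272). Those of different numbers gave −0.203 to −0.0675. Deviations were taken from each group's mean, so negative values there follow in part from the positive ones. Same-numbered libraries may thus be pairs, on the data's evidence and not the labels'. The main test left this pairing out, and only the replicate block took it in. The replicate block, DESeq2 1.42.0, other scaling, no filter and leaving out each library were alternatives. An opposite-strand gene with over 10% of a member's counts overlaps 8 members (Plod3, Loxl3, Lamb3, Mmp24, Mmp11, Adamts7, Mmp19 and Mmp28). Their reads may not be separable, though Lamb3 alone among them shares no exonic base with such a gene. Reads of Col20a1 may not be separable from those of a same-strand transcript that shares exonic bases with it.

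One gene of these families is not reported here.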

Additional observations from a re-analysis of the deposited data

How the results depend on the processing

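The 14 calls among members were unchanged, gene for gene, with DESeq2-type (RLE) factors, library totals only, no filter and the replicate block. The replicate block moved the count over all genes to 2569 (17.5%) and that of the matrix receptor list to 11. No filter also gave 11 in that list. The block changed no member's call. DESeq2 called 11 of the 14, with Col4a1 (adjusted p = 0.0506), Adamts17 (0.0830) and Adamtsl4 (0.104) above 0.05. Tested against a 1.5-fold change, 7 members were called, 3 higher and 4 lower. Leaving out each library in turn gave 9 to 13 members called (4 to 7 higher, 5 to 6 lower), 970 to 1789 genes over the whole table (970 without B220+ replicate 2 and 1029 without B220− replicate 3), 2 to 5 matrix glycoproteins and 3 to 9 receptors. In all 6 of these fits 9 of the 14 members were called. Of uncalled members, 3 changed sign among these fits: Col20a1 (−0.22 to 0.099), Col7a1 (−0.36 to 0.22) and Mmp28 (−0.25 to 0.37), as did Srgn (−0.056 to 0.074). The cause of these changes was not tested. Depth limits the members under 5 CPM (20 of 38), and no rate of false calls is known for them alone.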

Other observations

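The 90 genes of these families under the minimum were not tested. Among them Col5a3, a minor fibrillar collagen chain, had 1, 0 and 0 counts in B220− and 11, 17 and 5 counts in B220+ replicates 1 to 3, so that the B220+ level was 23.96 times the other after correction for depth (95% interval from counting, 4.01 to 974.5). It was chosen after its values were seen, and no p-value was computed. Mmp7, an MMP of Paneth cells, had 11 counts in B220− and 12 in B220+ libraries. By library these were 0, 1 and 10 counts in B220− and 0, 5 and 7 counts in B220+ replicates 1 to 3, and the summed Paneth and goblet cell markers were also highest in both replicate 3 libraries, at 110 and 106 CPM.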
